A study of Homo sapiens and Mus musculus with 24 samples.

Results

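The loci described here are those of Klf1, Klf3 and Bcl11a, 3 transcription factor genes of the red cell lineage, in mouse fetal liver chromatin. A peak was counted at a locus when it overlapped a fixed window in the build mm10. Each locus name stands for its window, and no annotation was used to assign peaks to a gene within it. The windows ran from 84890000 to 84912000 on chromosome 8 for Klf1 (22.0 kb), from 64795000 to 64835000 on chromosome 5 for Klf3 (40.0 kb) and from 24060000 to 24190000 on chromosome 11 for Bcl11a with its intronic enhancers (130.0 kb). Together they held 508 of the 564660 peaks in 12 deposited lists, 85 at Klf1, 86 at Klf3 and 337 at Bcl11a.

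KLF1 is an erythroid activator that binds CACCC-type sequences and is needed for expression of adult beta-globin and of Bcl11a. KLF3 is a repressor of the same family that works with CtBP co-repressors, can occupy sites that KLF1 also binds, and is itself a KLF1 target in erythroid cells. BCL11A silences embryonic and fetal globin genes, and its erythroid expression depends on enhancers inside an intron of the gene. Hemogen is found in nuclei of haematopoietic cells. BRG1 is the motor subunit of BAF (SWI/SNF) chromatin remodellers, and H3K27ac is an acetylated lysine of histone H3 that marks promoters and enhancers in use.

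Chromatin immunoprecipitation with sequencing had been done on livers of mouse embryos at day 14.5, when the fetal liver makes red cells. The groups were BRG1 from hemogen knockout (KO) embryos, and BRG1, hemogen and H3K27ac from embryos labelled WT, with 2 libraries each. For hemogen the antibody was directed at HA, an epitope tag; how that tag came into livers labelled WT, and how the KO allele was made, is not given in the labels. Neither is it given there whether the libraries of a group are separate embryos, so each SD is a spread over libraries that may be only technical. Each library has a peak list and each group a group list. The liver is a mixed tissue, so fewer erythroid cells and less signal per cell cannot be told apart. The Klf1 window held peaks in all 12 lists, as did those of Klf3 and Bcl11a. Peaks in the windows chosen for description do not check the tissue, and no other check was made. BRG1 peaks do not test the knockout of hemogen itself.

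The KO lists were short and the KO libraries shallow. Lists held 3209 and 5602 peaks in the KO BRG1 libraries and 26330 and 21167 in the WT BRG1 libraries; hemogen and H3K27ac library lists held between 42871 and 69883. The depth of each precipitate was recovered from the peak-caller values and scaled to 1.00 in WT BRG1 library 1. It was 0.404 and 0.341 in the KO libraries and 1.00 and 1.04 in the WT libraries. Weak peaks, with −log10 q below 2.00, had a median fold of 3.16 and 3.17 in the KO lists and 2.66 and 2.64 in the WT lists, so a peak had to stand higher above its background to be listed in the KO. Depth and genotype go together in these libraries and cannot be told apart. Fold enrichment and −log10 p are the authors' own peak-caller values and are used only to describe and rank peaks within a list.

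In WT liver the 3 loci carried 21 BRG1 regions, 21 hemogen regions and 28 H3K27ac regions, where a region joins overlapping peaks of both libraries of a group. Klf1 had 3 BRG1 and 3 hemogen regions, Klf3 had 4 and 3, and Bcl11a had 14 and 15. BRG1 regions overlapped 16 of the 21 hemogen regions (76.2%), against 41.6% of all 25631 hemogen regions in the genome. H3K27ac overlapped 15 of the 21 (71.4%), against 39.8% of all hemogen regions. In the other direction, 19 of the 21 BRG1 regions (90.5%) overlapped a hemogen region, close to the 96.6% over all 13213 BRG1 regions. With H3K27ac the share of BRG1 regions was 14 of 21 (66.7%), against 63.9% of all. Regions at a locus are neighbours and share its chromatin, so these shares are descriptions and were not tested. Nor were the regions matched to those of the genome for width or −log10 p.

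The Klf1 window carried 3 stretches of joint occupancy in WT liver, and the middle one was among the strongest BRG1 sites of the genome. Without an annotation, the stretches are not assigned to Klf1 or to another gene. When hemogen and WT BRG1 regions less than 1.00 kb apart were joined, blocks lay at 84892873 to 84894307, at 84899942 to 84903855 and at 84908184 to 84909598, separated by 5.63 and 4.33 kb. The middle block held the BRG1 region 84900143 to 84903537, 3395 bp wide. Its best peak had a fold of 10.2 in WT library 1, where it ranked 35 of 26330 by −log10 p, and of 7.85 in WT library 2, where it ranked 175 of 21167. Both libraries placed the region in the top strength class, with a strength of 99.5. Strength here means the percentile of −log10 p within a library's list, averaged over the 2 libraries. The hemogen region over it, 84899942 to 84903855, had folds of 5.99 and 6.07 and a strength of 96.0. Acetylated stretches overlapped the BRG1 region there, and 1 of them, 84899961 to 84900610, held the strongest H3K27ac peak of the window in library 2, but not in library 1.

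The outer blocks of the Klf1 window were weaker for BRG1. The region with the lowest coordinates, 84892873 to 84893930, had folds of 4.28 and 3.70 in the WT libraries and a strength of 46.5. The region at 84908548 to 84909416 had folds of 3.73 and 3.93 and a strength of 55.9. The hemogen regions over them had strengths of 78.5 and 76.5 within the hemogen lists. Those lists are longer than the WT BRG1 lists, so the percentiles do not show which factor was stronger. By rank, the order of hemogen and BRG1 in each of these blocks differed with the libraries compared. H3K27ac reached its highest strength at the locus over the last block, where the region 84908671 to 84909772 had folds of 4.40 and 4.96 and a strength of 93.6. The Klf1 window also had acetylation away from both factors, since 5 of its 10 H3K27ac regions overlapped neither a hemogen nor a BRG1 region. The strongest of these, 84896039 to 84896312, had a strength of 83.9 and overlapped peaks of the BRG1 and hemogen group lists.

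In the KO, BRG1 peaks at Klf1 lay in the middle and last blocks. KO library 1 listed 1 peak at the locus and KO library 2 listed 4, against 5 and 4 in the WT libraries. The groups overlap on this count (exact permutation test over libraries, two-sided, p = 0.667; Benjamini-Hochberg over 6 tests, 0.667). The peaks covered 359 and 1599 bp in the KO libraries, against 5186 and 4534 bp in the WT libraries, and here the groups do not overlap. The KO mean of 979 ± 877 bp was 20.1% of the WT mean of 4860 ± 461 bp (SD, n = 2 each; exact permutation test, two-sided, p = 0.333, adjusted 0.4). With 2 libraries against 2 no smaller p than 0.333 is possible. Over the whole genome, mean KO coverage was 11.2% of WT.

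Both KO libraries had a peak in the middle Klf1 block, at different heights. In KO library 2 the strongest peak, 84901914 to 84902241, had a fold of 8.42 and ranked 12 of 5602, so the site was among the leading peaks of that list. In KO library 1 the single peak, 84902664 to 84903022, had a fold of 2.80 and ranked 2742 of 3209. KO library 2 had further peaks at 84901187 to 84901475 (fold 4.24) and 84902720 to 84903445 (fold 5.60), and the last of these overlaps the peak of library 1. The KO libraries thus shared 1 region at Klf1, 84902664 to 84903445. The last block held 1 peak of KO library 2, 84909078 to 84909333 (fold 4.61), and none of KO library 1. No KO list had a peak in the block at 84892873 to 84894307, where the WT group list had a fold of 4.31.

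At Klf1 the KO libraries had similar fragment numbers over unequal local backgrounds. Fragment numbers over each summit were recovered from the fold and p-value as whole numbers. At its strongest Klf1 peak, KO library 1 had 43 fragments (95% exact Poisson interval 31.1 to 57.9, counting error only) over a local background of 14.2. KO library 2 had 36 fragments (25.2 to 49.8) over a background of 2.97. These 2 peaks do not overlap. The peak of KO library 2 that overlaps the one of KO library 1 had 40 fragments over a background of 5.93. The WT libraries had 58 (44.0 to 75.0) over 4.67 and 53 (39.7 to 69.3) over 5.55. The raw KO numbers lie below the WT numbers, though the intervals overlap. Divided by relative depth, the numbers at the strongest peaks came to 106 in each KO library, against 58.0 and 51.0 in the WT libraries. The same ratio over all listed peaks had a median of 71.7 and 73.3 in the KO lists, against 24.0 and 26.0 in the WT lists. The order at Klf1 is therefore that of the lists as a whole, and it holds only peaks high enough to be listed.

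**Figure D1:**
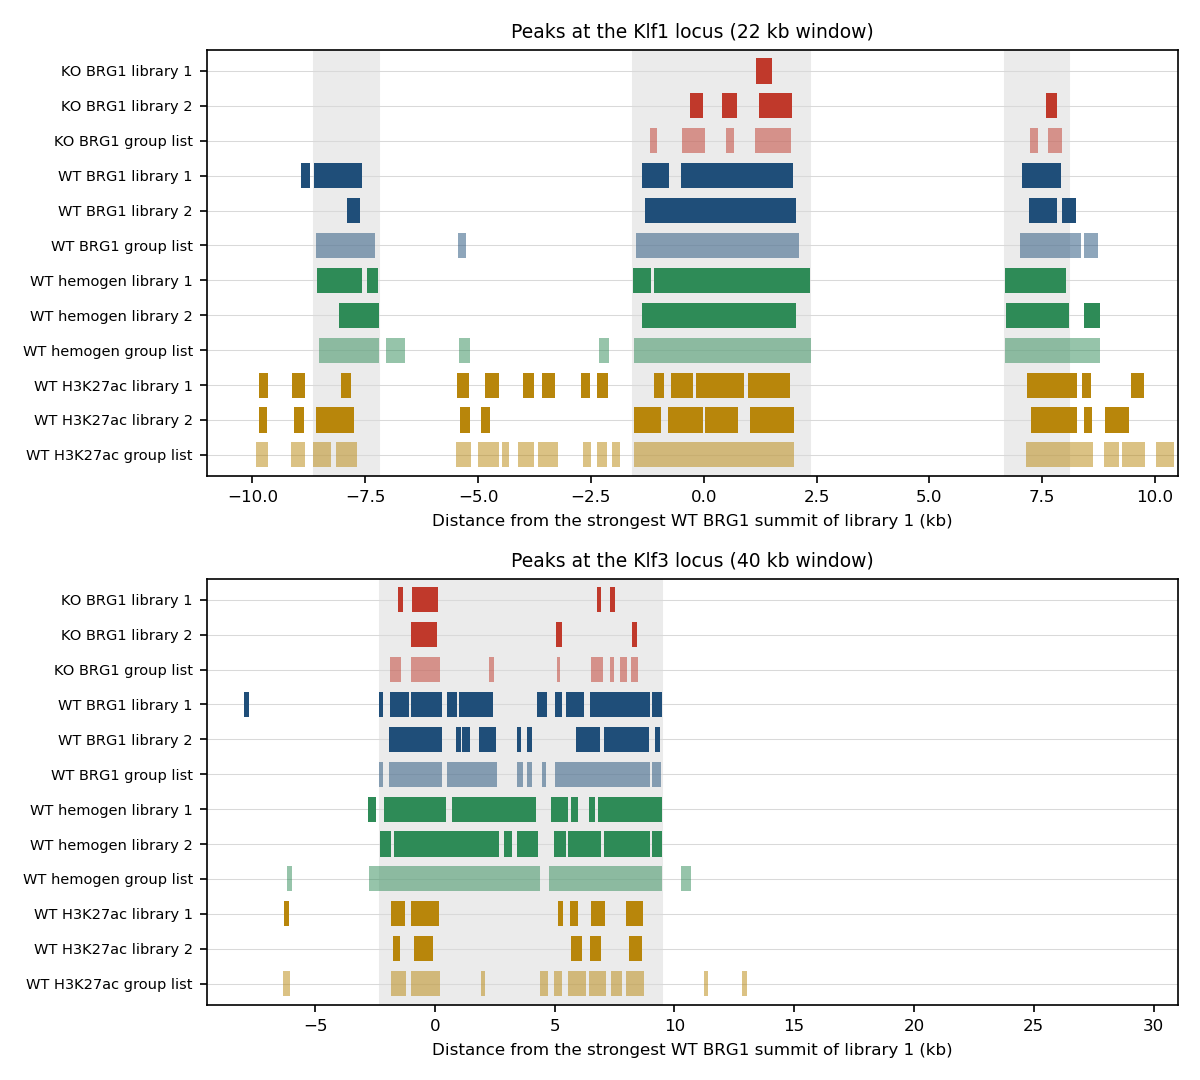
Peaks of the 12 lists at Klf1 (top) and Klf3 (bottom), as bars along the distance in kb from the summit of the strongest WT BRG1 peak of library 1, with KO lists in the upper rows and group lists in paler colour. Grey marks blocks of hemogen and WT BRG1 regions: KO BRG1 peaks lie in the middle and last of the 3 Klf1 blocks, and all KO peaks at Klf3 lie in its single block of 11.8 kb.

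At Klf3 BRG1 and hemogen regions formed 1 block of 11.8 kb, from 64802028 to 64813830. The library lists held few peaks of either in the rest of the 40.0 kb window. WT BRG1 peaks covered 71.9% and 58.5% of the block in libraries 1 and 2, and hemogen peaks 85.2% and 86.7%. H3K27ac covered 30.2% and 21.7%, so acetylation was patchy within it. Outside the block, WT BRG1 library 1 and hemogen library 1 had 1 peak each, and library 2 of both had none. The hemogen group list had 2 of its 4 peaks outside, and the WT BRG1 group list had none outside. Peaks that form the regions lie inside the block by construction.

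The first Klf3 region, 64802427 to 64804639, had the highest strength of the 21 WT BRG1 regions. It had folds of 8.97 and 8.43 in the WT libraries, ranked 60 of 26330 and 13 of 21167, and had a strength of 99.9, which placed it at 11 among 13213 regions. The middle Klf1 region had a strength of 99.5 but ranked higher in WT library 1 (35 against 60) and in the WT group list (168 against 195). The next, 64804857 to 64806910, had a strength of 81.6, and its best peaks had folds of 4.31 and 5.34 with summits 1134 bp apart. It overlapped no H3K27ac region but did overlap a peak of the H3K27ac group list. The third, 64809800 to 64813339, was the widest at 3540 bp and had a strength of 80.3. The last, 64813405 to 64813810, had folds of 3.10 and 3.20 and a strength of 13.6, so it stood near the bottom of the genome's BRG1 regions.

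Hemogen at Klf3 fell into 3 regions whose borders differed from those of BRG1. The region 64802028 to 64808623 was 6596 bp wide, spanned the first and second BRG1 regions and had a strength of 97.3, with folds of 8.60 and 7.33. Its best summits differed by 2022 bp between libraries, so no single centre was set. The region 64809914 to 64813830 had a strength of 93.7. Between them, 64809180 to 64809911 had folds of 3.88 and 3.62 and a strength of 47.4.

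The KO libraries listed 4 and 3 BRG1 peaks at Klf3, against 11 and 9 in the WT libraries (exact permutation test, two-sided, p = 0.333, adjusted 0.4). The KO mean was 35.0% of WT, beside 55.6% at Klf1 and 18.5% over the genome. They covered 1652 and 1503 bp in the KO, against 8696 and 6903 bp in WT. On both measures the groups do not overlap. Mean KO coverage was 20.2% of WT (1578 ± 105 and 7800 ± 1268 bp, SD, n = 2 each; exact permutation test, two-sided, p = 0.333, adjusted 0.4). This is nearly the same share as at Klf1, and both are above the 11.2% of the genome; the differences were not tested.

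The leading Klf3 site was found in every KO list at the position it had in WT. KO library 2 had the peak 64803358 to 64804428, with a fold of 6.13 and rank 85 of 5602. KO library 1 had 64803402 to 64804483, with a fold of 3.36 and rank 1766 of 3209. Their summits, at 64804233 and 64804110, lay close to the WT summits at 64804339 and 64804243. In the KO group list the site ranked 27 of 13938 with a fold of 5.96. KO library 1 had 46 fragments over a background of 12.5 and KO library 2 had 44 over 5.94, against 60 over 5.68 and 68 over 6.86 in the WT libraries. As at Klf1, the background at this site was higher in KO library 1 than in the other BRG1 libraries.

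The other KO peaks at Klf3 were single-library calls. KO library 1 had peaks at 64802793 to 64803015 (fold 4.52), 64811095 to 64811269 (fold 3.90) and 64811667 to 64811838 (fold 3.77). KO library 2 had peaks at 64812569 to 64812770 (fold 3.57) and at 64809396 to 64809625 (fold 5.14). The third WT region was thus called in both KO libraries, but through peaks that do not touch each other. The peak at 64809396 to 64809625 lay outside the WT BRG1 regions. It overlapped a peak of WT library 1, 64809344 to 64809659 with a fold of 6.13, and no peak of WT library 2. The KO group list also had it, at 64809427 to 64809576. The second WT region had a KO peak only in the group list, at 64806614 to 64806792, and the last had none.

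**Figure D2:**
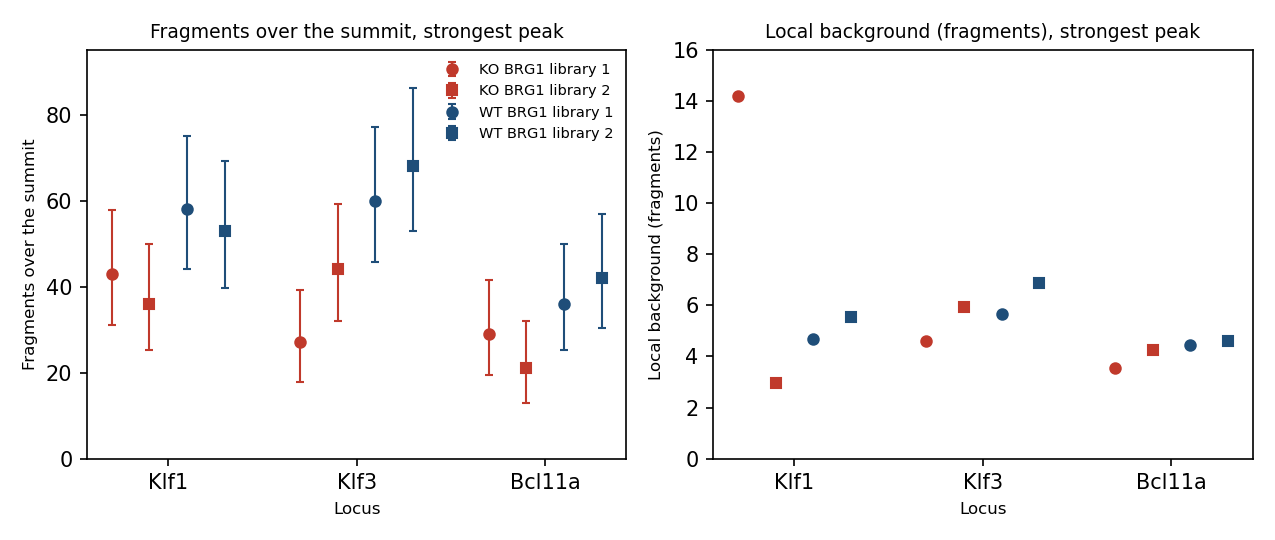
Fragments over the summit of the strongest BRG1 peak in each library (left, with 95% exact Poisson intervals for counting error) and the local background there in fragments (right), by locus, with KO libraries left of WT libraries. KO library 1 stands apart at Klf1, with 43 fragments over a background of 14.2. At Klf3 the plotted peak of KO library 1 is the one with 27 fragments, which has the higher −log10 p.

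At Bcl11a the factors lay in 3 blocks spread over a 130.0 kb window. The blocks ran from 24073977 to 24084028 (10.1 kb), from 24098901 to 24102167 (3.27 kb) and from 24126116 to 24137999 (11.9 kb), with gaps of 14.9 and 23.9 kb. The strongest BRG1 summits of the first and the third blocks lay 50.2 kb apart in WT library 1. Of the BRG1 peaks in the window, 26 of 28 in WT library 1 and 25 of 26 in WT library 2 were in these blocks. The hemogen libraries had 23 of 29 and 27 of 29 peaks there, and the H3K27ac libraries 18 of 39 and 16 of 29. Blocks were made from BRG1 and hemogen regions, so peaks that form those regions lie inside them by construction. In the group lists, 24 of 28 WT BRG1 peaks, 13 of 33 hemogen peaks and 24 of 81 H3K27ac peaks lay in the blocks. No annotation of the build was used, so the blocks are not assigned to the promoter or to an enhancer.

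In both WT libraries BRG1 was strongest in the first Bcl11a block. The region 24075741 to 24079599 had folds of 5.73 and 7.28 in the WT libraries and a strength of 93.2, with best summits only 16 bp apart. Its neighbour 24079696 to 24080948 had folds of 6.64 and 6.57 and a strength of 92.5, and 24081001 to 24082368 had 4.72 and 4.18 and 72.9. BRG1 peaks covered 69.1% and 51.6% of this block and hemogen peaks 84.8% and 73.8%. H3K27ac covered 16.8% and 11.2%. The WT BRG1 group list gave the other order. There the best peak of the first block, 24075263 to 24082377, had a fold of 6.24 and ranked 1405. The best of the third block, 24129093 to 24130671, had a fold of 6.57 and ranked 1362.

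The third block was less filled by BRG1 and more acetylated. BRG1 peaks covered 42.9% and 27.7% of it, hemogen peaks 59.7% and 51.5%, and H3K27ac peaks 49.8% and 36.6%. Its strongest BRG1 region, 24129622 to 24130547, had folds of 6.28 and 4.54 and a strength of 83.6. The strongest hemogen region of the locus lay over it, 24129107 to 24131658, with folds of 7.88 and 7.14 and a strength of 95.3; the best hemogen summits of the 2 libraries were 47 bp apart. A second strong hemogen region, 24135122 to 24137999, had folds of 8.12 and 6.57 and a strength of 94.5. The BRG1 regions under it, 24135368 to 24135943 and 24136061 to 24136803, had strengths of 19.3 and 69.5. The BRG1 summit of 24135368 to 24135943 lay 740 bp from the nearest hemogen summit in library 1 and 658 bp in library 2. That of 24136061 to 24136803 lay 55 and 1 bp from one. The H3K27ac region of highest strength was 24127335 to 24128453, with folds of 4.25 and 4.66 and a strength of 87.8. No H3K27ac list had its strongest single peak of the locus there. That peak was 24129122 to 24129829 in library 1 (fold 5.54) and 24131038 to 24131822 in library 2 (fold 5.66). In the group list it was 24133259 to 24134184 (fold 6.33).

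The second block carried a strong hemogen region that overlapped no BRG1 or H3K27ac region. The hemogen region 24099902 to 24101226 had folds of 8.47 and 5.80 and a strength of 91.7. Its best peak ranked 1535 of 53063 in hemogen library 1. BRG1 was listed there in each WT library, but at 24100447 to 24100831 in library 1 (fold 5.25) and at 24100886 to 24101190 in library 2 (fold 4.42). These 2 peaks did not overlap and lay 54 bp apart. Library 1 had a further peak over the hemogen region, at 24100055 to 24100337 (fold 4.96). The WT BRG1 group list had peaks at both places. H3K27ac covered 31.5% of the block in library 1 and had no peak there in library 2. The H3K27ac group list had 5 peaks covering 52.0% of the block, among them 24100453 to 24100717 (fold 4.01) over the hemogen region. The WT BRG1 regions of this block lay beside the hemogen region, at 24098901 to 24099272 and 24101566 to 24102167, with strengths of 27.7 and 45.6. These were the 2 BRG1 regions of the 3 loci that overlapped no hemogen region, though each overlapped the hemogen group list. Over the genome, 80.4% of the hemogen regions in the same decile of strength, decile 9 of 10, had a BRG1 region, and 14.9% had neither BRG1 nor H3K27ac.

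Few BRG1 peaks were listed at Bcl11a in the KO libraries. They held 1 and 2 peaks, against 28 and 26 in the WT libraries. The KO mean was 5.56% of WT, against 18.5% over the genome. The peaks covered 204 and 558 bp in the KO libraries, against 14067 and 9362 bp in the WT libraries. The groups lie far apart on both measures. Mean KO coverage was 3.25% of WT (381 ± 250 and 11714 ± 3327 bp, SD, n = 2 each), below the 20.1% at Klf1, the 20.2% at Klf3 and the 11.2% of the genome. Each test gave the smallest p that the design allows (exact permutation test, two-sided, p = 0.333, adjusted 0.4). The difference between loci was not tested, and the WT peaks of Bcl11a were weaker than the leading ones of Klf1 and Klf3.

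The 3 KO library peaks at Bcl11a were at different places. KO library 1 had only 24128028 to 24128231, in the third block, with a fold of 5.77 and rank 456 of 3209. KO library 2 had only 24077234 to 24077544 (fold 3.17, rank 5527 of 5602) and 24081105 to 24081351 (fold 3.93, rank 4364), both in the first block. The libraries therefore shared no BRG1 region at Bcl11a. The peak of KO library 1 had 29 fragments over a background of 3.56, and those of KO library 2 had 22 over 5.93 and 21 over 4.24. At the strongest peaks of the locus the WT libraries had 36 over 4.46 and 42 over 4.59.

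The KO group list held more, 12 peaks at Bcl11a against 28 in the WT group list. They covered 2794 bp, against 18783 bp in WT, or 14.9%. In group lists the corresponding shares were 31.5% at Klf1, 34.2% at Klf3 and 19.6% over the genome. Of the 12 peaks, 6 lay in the first block, between 24076325 and 24082130, and 5 in the third, between 24128003 and 24133851. None lay in the second block. The remaining one, 24115926 to 24116098, was between blocks and overlapped no WT BRG1 or hemogen peak of any list. Peak numbers in group lists were 6 in the KO against 5 in WT at Klf1, and 8 against 8 at Klf3. At Bcl11a the KO number was 42.9% of WT, and over the genome it was 37.0% (13938 against 37655 peaks). At Klf1 several narrow KO peaks stood against 1 broad WT peak in the middle block. The widest Klf1 peak was 806 bp in the KO group list and 3594 bp in the WT group list.

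**Figure D3:**
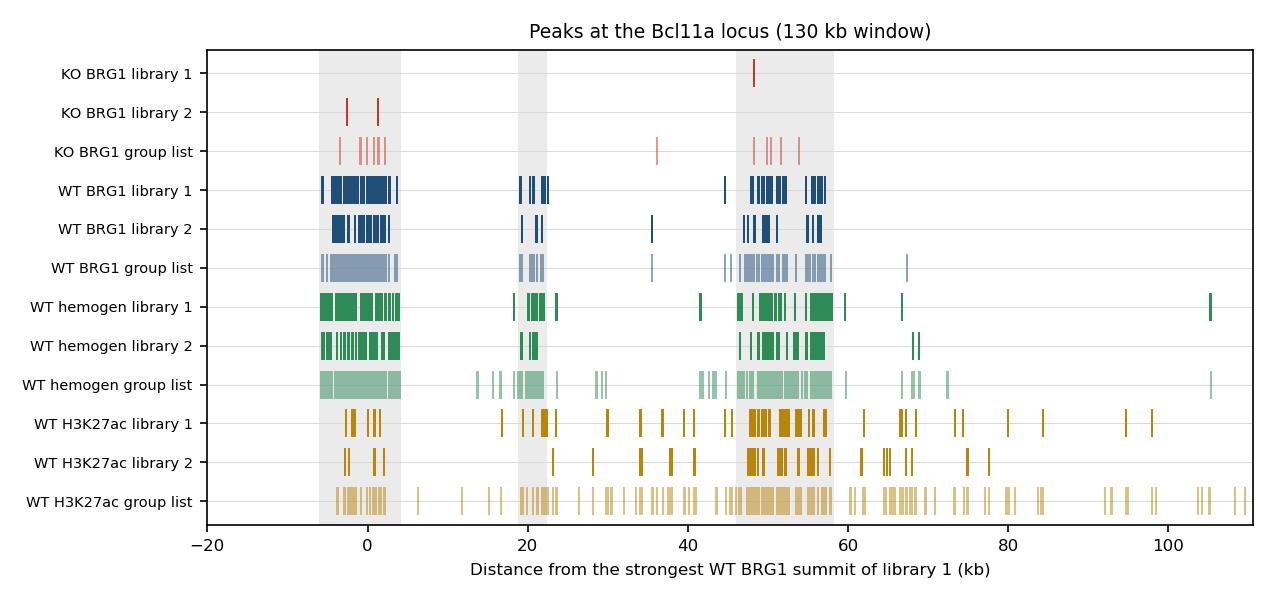
Peaks of the 12 lists at Bcl11a as bars along the distance in kb from the summit of the strongest WT BRG1 peak of library 1, with KO lists in the upper rows and group lists in paler colour. The 3 grey blocks hold 26 of 28 and 25 of 26 BRG1 peaks of the WT libraries, and 13 of 33 peaks of the hemogen group list; KO library 1 has 1 peak in the third block, KO library 2 has 2 in the first, and no KO list has one in the second.

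**Figure D4:**
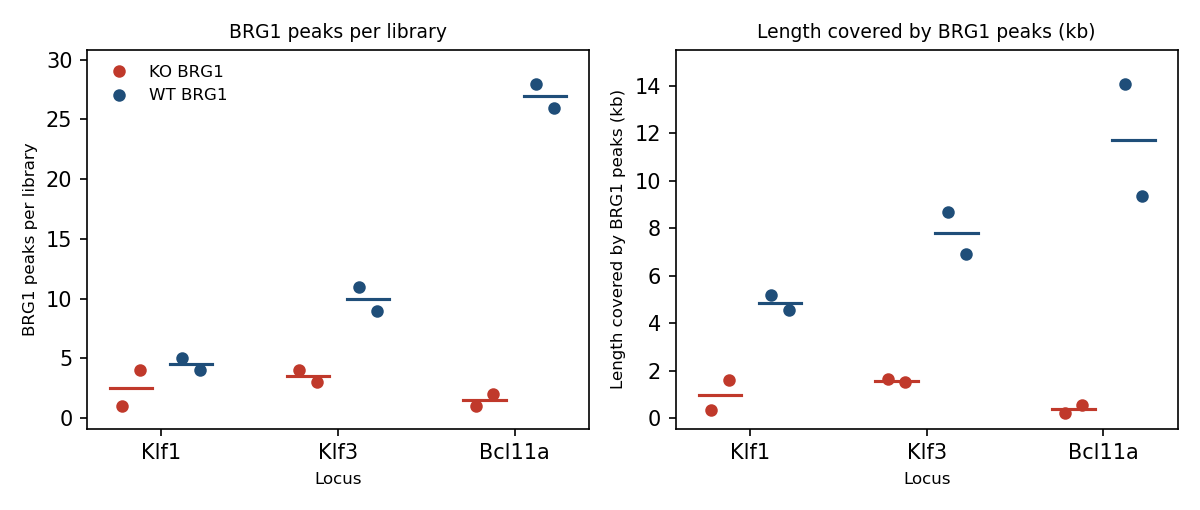
BRG1 peaks per library (left) and length covered by them in kb (right) at each locus, with points for libraries, lines for the mean of 2, and KO left of WT. The KO and WT points mix only for the number of peaks at Klf1, with 1 and 4 against 5 and 4, and are farthest apart at Bcl11a.

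Counted by region, BRG1 at the 3 loci was called in the KO about as often as elsewhere. Of the 21 WT BRG1 regions, 11 (52.4%) overlapped a peak of any KO list, against 55.3% of all 13213. By locus these were 2 of 3 at Klf1, 3 of 4 at Klf3 and 6 of 14 at Bcl11a. The KO group list had a peak in 11 of the 21 (52.4%; 53.6% of all regions). KO library 1 had one in 4 (19.0%; 18.4% of all regions) and KO library 2 had one in 6 (28.6%; 28.9% of all). Both KO libraries had one in 3 of the 21 (14.3%; 12.1% of all), namely the middle region of Klf1 and the first and the third of Klf3. None of the 14 Bcl11a regions was called in both. These shares are near the genome's and are not a result about the loci.

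List length bears on the direction of the peak numbers at Klf1 and Klf3. With each BRG1 library list trimmed to its 3205 strongest peaks, Klf1 had 1 and 4 peaks in the KO libraries, against 1 and 1 in the WT libraries. Klf3 had 4 and 2 in the KO, against 2 and 1 in WT. Bcl11a had 1 and 0 in the KO, against 5 and 2 in WT. The KO mean was thus the higher one at Klf1 and Klf3 and the lower one at Bcl11a. Covered length in the trimmed KO lists was 33.7% of WT at Klf1, 77.6% at Klf3 and 3.19% at Bcl11a, against 27.9% over the genome.

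Regions called in the KO were the stronger ones in WT, at these loci and in general. The 11 called regions had a median strength of 81.6 (20.8 to 99.9), and the 10 in no KO list a median of 46.0 (13.6 to 69.5). Every region above a strength of 69.5 was called, among them the 4 strongest of Bcl11a. Over all WT regions the share called was 25.9% in the weakest decile and 91.6% in the strongest. The weakest called region, 24130929 to 24131521 in the third Bcl11a block, had a strength of 20.8 and was in the KO group list only. The strongest in no KO list, 24136061 to 24136803, had a strength of 69.5 and lay under the second strong hemogen region of that block.

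**Figure D5:**
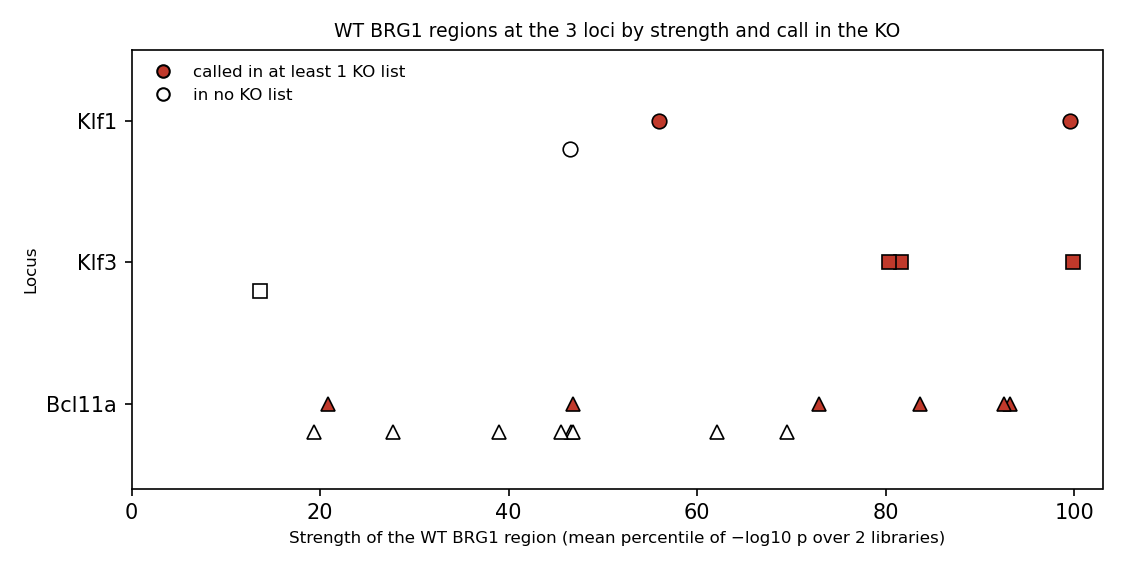
Each of the 21 WT BRG1 regions at the loci by strength (mean percentile of −log10 p over the 2 WT libraries), filled where at least 1 KO list has a peak and open, set lower, where none has. The filled regions have a median of 81.6 and the open ones of 46.0, and the ranges overlap between 20.8 and 69.5.

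Acetylation went with the KO call as it did in the genome. Of the 14 WT BRG1 regions with an H3K27ac region, 10 (71.4%) were called in the KO, against 70.7% of all such regions. Of the 7 without, 1 (14.3%) was called, against 28.1% of all. Any shared bp counted as an overlap, and regions were not matched for width or strength. Called regions were 593 to 3859 bp wide and those in no KO list 265 to 1058 bp. At Bcl11a these counts were 6 of 9 and 0 of 5. The exception without an H3K27ac region was the second region of Klf3, called in the KO group list only. Regions without an H3K27ac region were not all free of H3K27ac peaks. In the H3K27ac group list 18 of the 21 BRG1 regions (85.7%) had a peak, among them the second region of Klf3. The same share over the genome is not given here. H3K27ac from KO liver was not analysed here.

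Most BRG1 peaks in the KO lay on WT sites, at the loci and in the genome. Over the 3 KO lists there were 41 peaks at the loci. Of these, 37 overlapped a WT BRG1 region, against 78.1% of all 22735 KO peaks. A peak of the WT BRG1 group list was overlapped by 39 (91.5% of all KO peaks), and a hemogen region by 39 (87.8% of all). A site in several KO lists was counted in each, and the differences from the genome were not tested. The exceptions to the WT group list were 2 peaks of the KO group list at Bcl11a, 24115926 to 24116098 and 24133686 to 24133851. Both overlapped peaks of the H3K27ac group list, and the second also an H3K27ac region. Neither KO library listed them. Median widths of BRG1 peaks at the loci were 213.5 and 289 bp in the KO libraries and 404 and 309 bp in the WT libraries.

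Distances between BRG1 and hemogen summits in WT liver ranged from 11 to 1469 bp in library 1 and from 1 to 1379 bp in library 2. Over the 21 BRG1 regions, the best BRG1 summit lay a median of 266 bp from the nearest hemogen summit in library 1 and 265 bp in library 2. It lay within 100 bp in 5 and 6 regions. For H3K27ac the medians were 261 and 374 bp, with 5 and 4 regions within 100 bp. These distances compare libraries of the same number, which nothing in the labels pairs. At Klf1 no region's best BRG1 summit came within 100 bp of a hemogen summit of the same-numbered library. Across numbers this did not hold, since BRG1 library 2 had a summit at 84909173 and hemogen library 1 one at 84909171.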

How the data were processed

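Chromatin immunoprecipitation with sequencing was measured in 8 liver libraries, grouped by sample title. Per the submitters' processing notes, the tools named, without role or order, were MACS2 2.2.7.1, Bowtie2 2.3.5, Picard 2.21.4 and SAMtools 1.9. The labels' protocols describe tagmented as well as ligated libraries, not which library was which. Build, read filters and controls: not given in the sources used here. The build mm10 fits the contig names. The authors deposited 8 library lists and 4 group lists. Per peak, the deposited values are a fold over local background, a −log10 p and a −log10 q, with the smallest −log10 q between 1.30 and 1.37. Inputs, the 12 libraries of K562, a human erythroleukaemia cell line, and a mouse genome or annotation were not used here.

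Peaks on X and the 19 autosomes were kept, and 1 shared bp made an overlap. Regions are merged overlapping peaks present in both libraries of a group. "Called in the KO" means an overlap with at least 1 of the 3 KO lists; an uncalled region may still be bound. Named in the text are all WT BRG1 and hemogen regions of Klf1 and Klf3, the 4 strongest BRG1 regions and the strongest hemogen region of Bcl11a, and the KO peaks. Other regions were picked after their values were seen. Exact permutation tests compared peak number and covered length over libraries, with Benjamini-Hochberg adjustment over 6 tests.

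Summit fragments were recovered by solving the p-value as a Poisson tail and the fold with 1 added to height and background, which assumes how the caller works. In every list 100% of the heights were whole multiples of a single scale factor (tolerance 0.01), against 3.53% to 4.93% at other factors. A single solution was found for 281 of the 288 library peaks at the loci. Relative depth came from the lowest background that 5 or more peaks had in common, scaled by that factor and by the narrowest peak. On simulated peaks 100% of the numbers given were the true ones, counted only where a single solution was found. The simulation used the same formula, so it does not test how the caller works. Members and lists were chosen with earlier results of these data known; blocks and the fragment recovery were added after the lists were seen. Software was Python 3.11.15 with Matplotlib 3.10.9, SciPy 1.17.1, pandas 2.3.3 and NumPy 2.4.6. Alternatives were a 50% overlap, a −log10 q of at least 5, group lists, omission of each library, calls in both KO libraries, BRG1 library lists of equal length (3205 peaks) and pairing by library number.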

Additional observations from a re-analysis of the deposited data

How the results depend on the processing

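Of 102 alternative values, 82 kept their direction or stayed within the 95% exact binomial interval of the reported share. This count is not a measure of robustness. Pairing by library number leaves the differences in peak number and covered length unchanged by construction, and these are among the 82. The intervals rest on few neighbouring regions and were wide, 9.43% to 99.2% at Klf1 and 19.4% to 99.4% at Klf3, so few values could fall outside. With BRG1 library lists trimmed to their 3205 strongest peaks, peaks per library were higher in the KO by 1.5 at Klf1 (2.5 and 1.0) and by 1.5 at Klf3 (3.0 and 1.5), the reverse of the full lists, and remained lower at Bcl11a (0.5 and 3.5). In the trimmed lists 100% of WT regions were called at Klf1 and at Klf3 (1 of 1 each) and 0.0% at Bcl11a (0 of 2), against 69.6% of all. In group lists KO minus WT peaks were 1.0 at Klf1 and 0.0 at Klf3; 24.4% of WT peaks at the 3 loci had a KO peak, against 24.6% of all, and 44.2% of hemogen peaks had BRG1, against 29.2% of all. At a minimum −log10 q of 5, 100% of Klf1 regions were called (2 of 2), against 38.6% of all, and 45.5% of hemogen regions had H3K27ac, against 32.5% of all. Requiring both KO libraries left 0.0% at Bcl11a and 14.3% over the 3 loci, against 12.1% of all.

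Leaving out 1 library at a time gave called shares of 33.3% to 66.7% at Klf1, 44.4% to 50.0% at Klf3 and 7.14% to 35.7% at Bcl11a. Over the 3 loci they were 19.0% to 40.9%, near the 18.4% to 41.6% over the genome in the same settings. The lowest at Bcl11a and over the 3 loci came without KO library 2, and the KO group list was then not used either. Hemogen regions with BRG1 ranged from 58.5% to 90.5%, and with H3K27ac from 46.3%, without hemogen library 2, to 81.0%. Over the genome these ranges were 25.1% to 56.8% with BRG1 and 25.4% to 52.1% with H3K27ac. KO minus WT ranged from −3.5 to −0.5 peaks at Klf1, −7.5 to −5.5 at Klf3 and −26.5 to −24.5 at Bcl11a, and from −4501 to −3261 bp, −7118.5 to −5325.5 bp and −13686 to −8981 bp in covered length.

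Libraries share only a number, and nothing in the labels pairs them: KO library 1 peaks overlapped WT library 1 in 93.9% and WT library 2 in 91.1%, and KO library 2 peaks in 90.0% and 83.5%. With the replicate number as a block, 33.3% of WT library peaks were called in the same-numbered KO library at Klf1, 25.0% at Klf3, 5.56% at Bcl11a and 13.3% in all; exact sign-flip permutation tests gave p = 1.0 for peaks at Klf1 and 0.5, the smallest possible with 2 pairs, for the others. The planned motif search and the list of other pathway genes were not run, since a genome and annotation of the build were not used. The lowest summit with a recovered count at the loci in a KO library had 21 fragments; a site in no KO list is not shown to be unbound.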
